A study of Mus musculus with 15 samples.

Results

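The genes described here are 8 transcripts that mark macrophages able to take up and store lipid, Trem2, Tyrobp, Lgals3, Gpnmb, Spp1, Cd9, Apoe and Fabp5. They were chosen as a list by symbol, each symbol matched 1 Ensembl gene, and they make up 8 of the 55450 genes counted in this series. All 8 were among the 16920 genes that passed the filter on low counts and were tested. RNA was measured in bulk gastrocnemius of 15 C57BL/6JN females over 17 months of age, with no transgene or drug named in the labels. The Low groups, labelled robust, carried 0 or 1 positive frailty markers and the High groups, labelled frail, carried 2 or more, where a marker was a poor score for body weight, frailty index, treadmill distance, grip strength or rotarod latency within this cohort. Low Control (n = 4) and High Control (n = 3) mice were sedentary, and Low Run (n = 4) and High Run (n = 4) mice ran downhill in 2 bouts at 13 m/min on a 22 degree decline and were sampled 24 h later. The frailty groups are therefore relative to aged females of 1 strain, and a portion of 1 whole muscle was read for each mouse.

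TREM2 is a receptor of macrophages that binds lipids and lipoproteins, and it signals through TYROBP, an adaptor that carries the activating motif the receptor lacks. Macrophages that engulf dead cells or lipid switch on a shared set of genes for recognising, digesting and carrying that cargo, and cells with this set have been described in adipose tissue, atherosclerotic plaque, brain and injured muscle. In muscle such cells appear as damage is cleared and repair proceeds. Several of these genes are also used by other cells, Apoe and Cd9 widely, Fabp5 in endothelium and Gpnmb and Spp1 in some non-macrophage lineages, so their level in a whole muscle is a sum over cell types. In bulk tissue, fewer cells of a type and less RNA per cell cannot be told apart.

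The comparison of High Run with High Control mice took part in how the list came about, since Trem2 and Lgals3 are among the genes the study's supplement lists beside its enriched terms for that comparison. Its values, and those of the Frailty × Run interaction, are given as a description. The comparisons of the 2 control groups and of the 2 run groups share mice with it. Only Low Run against Low Control shares none of those mice.

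All 8 are protein-coding genes of GRCm38. Trem2 (ENSMUSG00000023992) lies at chr17:48346401-48354147 on the plus strand, Tyrobp (ENSMUSG00000030579) at chr7:30413760-30417585 on the plus strand, Lgals3 (ENSMUSG00000050335) at chr14:47367751-47386160 on the plus strand and Gpnmb (ENSMUSG00000029816) at chr6:49036546-49070929 on the plus strand. Spp1 (ENSMUSG00000029304) lies at chr5:104435118-104441050 on the plus strand, Cd9 (ENSMUSG00000030342) at chr6:125460266-125494791 on the minus strand, Apoe (ENSMUSG00000002985) at chr7:19696109-19699188 on the minus strand and Fabp5 (ENSMUSG00000027533) at chr3:10012548-10016607 on the plus strand. The genes lie on 6 chromosomes, and none lies next to another. Counting used the strand, so the antisense genes that overlap Cd9 do not share its reads. Exons of Spp1 overlap those of Gm42793 on the same strand, and Cd9 has a processed pseudogene, Cd9-ps, whose highest count in a mouse was 29.

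The promoters of the 3 genes whose High Run and High Control mice did not overlap are shown from 100 bases before the start site to 30 bases from it, from RefSeq on GRCm38.p6, so that they can be set beside each other. Capitals mark letters of the core of PU.1 (GAGGAA), the factor that specifies macrophages, or of AP-1 (TGANTCA), which is induced by stress and mechanical load; CACGTG, the E-box read by MITF and TFE factors, was searched too. Both strands were searched over 300 bases, 250 before to 50 after each start, and no 2 matches overlapped.
Trem2, chr17:48346301-48346430, plus strand: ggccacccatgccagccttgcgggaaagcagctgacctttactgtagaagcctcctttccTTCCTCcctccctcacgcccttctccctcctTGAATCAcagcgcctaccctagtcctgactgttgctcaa
Gpnmb, chr6:49036418-49036547, plus strand: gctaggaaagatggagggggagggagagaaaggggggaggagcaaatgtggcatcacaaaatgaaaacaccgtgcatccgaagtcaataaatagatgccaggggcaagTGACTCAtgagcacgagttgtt
Lgals3, chr14:47373760-47373889, plus strand: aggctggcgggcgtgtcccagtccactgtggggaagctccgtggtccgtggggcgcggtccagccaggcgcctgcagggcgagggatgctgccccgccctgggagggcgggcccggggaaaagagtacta

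Trem2 has the PU.1 letters on the minus strand, 40 bases before the start, and the AP-1 letters 9 bases before it. Gpnmb has the AP-1 letters 8 bases after its start and neither of the other motifs. That RefSeq start lies before the first base of the span given above, and so do these letters. Lgals3 has none of the 3 in its window, which lies at a RefSeq start inside the gene span given above and not at the first base of that span. Among 32851 promoter windows of the same length, 28.3% held GAGGAA, 7.81% held TGANTCA and 7.15% held CACGTG. Of the other genes, 1 window of Spp1 and 2 of the 3 windows of Apoe held GAGGAA, and no window of the 6 genes with a promoter in the table held CACGTG. A match is a description of the letters, and Tyrobp and Fabp5 are named only.

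The 8 genes differed widely in abundance. Scaled to the length of the exons of each gene, as mean CPM (counts scaled to a common library total) per kilobase over the 15 mice, Apoe was highest at 77.2, followed by Cd9 at 20.1, Lgals3 at 11.1, Tyrobp at 8.12, Spp1 at 6.63, Gpnmb at 2.62, Fabp5 at 1.13 and Trem2 at 0.191. With the longest coding transcript as the length the order was the same, from 117 for Apoe to 0.867 for Trem2. Trem2, the receptor that names the state, was thus the scarcest of the 8, with 6 to 49 counts per mouse, whereas Apoe had 2578 to 7844. The total count per mouse ran from 19395125 to 30699216. The coefficient of variation of CPM over the 15 mice was 60.7% for Spp1, 56.4% for Trem2, 51.3% for Lgals3, 46.7% for Gpnmb and 46.5% for Tyrobp, but 28.2% for Fabp5, 26.1% for Apoe and 23.1% for Cd9. The first 5 thus varied more between mice than the other 3.

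Some libraries stood apart in their cell type markers and are named where they matter. Low Run mouse D68 had a summed level of 6 neutrophil markers of 449 CPM, against 12.5 to 17 CPM in the other Low Run mice. High Run mouse D62 had the lowest sum of 19 macrophage markers in its group, 371 CPM against 575 to 686, the lowest monocyte sum, 24 CPM, and the highest Schwann cell sum, 296 CPM. Its 6 fibroblast markers summed to 974 CPM, against 1970 to 2620 in the other High Run mice and at least 1470 CPM in every other mouse. The monocyte sums were made up mostly of 1 marker, Fn1, at a mean of 89.1 CPM over all mice. Low Control mouse D9 had a macrophage sum of 343 CPM, the lowest of all mice, but without Maf, which makes up most of that sum, it was at 165 CPM and both High Control D23 (124 CPM) and D62 (156 CPM) were lower. Skeletal muscle fibre markers summed to between 121000 and 186000 CPM in every mouse, and these are the defining markers of the labelled tissue. The fibre sums were 121000 to 151000 CPM in High Run and 156000 to 180000 in High Control mice, so every High Run mouse was lower. In Low Run mice they were 136000 to 162000 CPM and in Low Control mice 137000 to 186000, which overlapped.

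**Figure D1:**
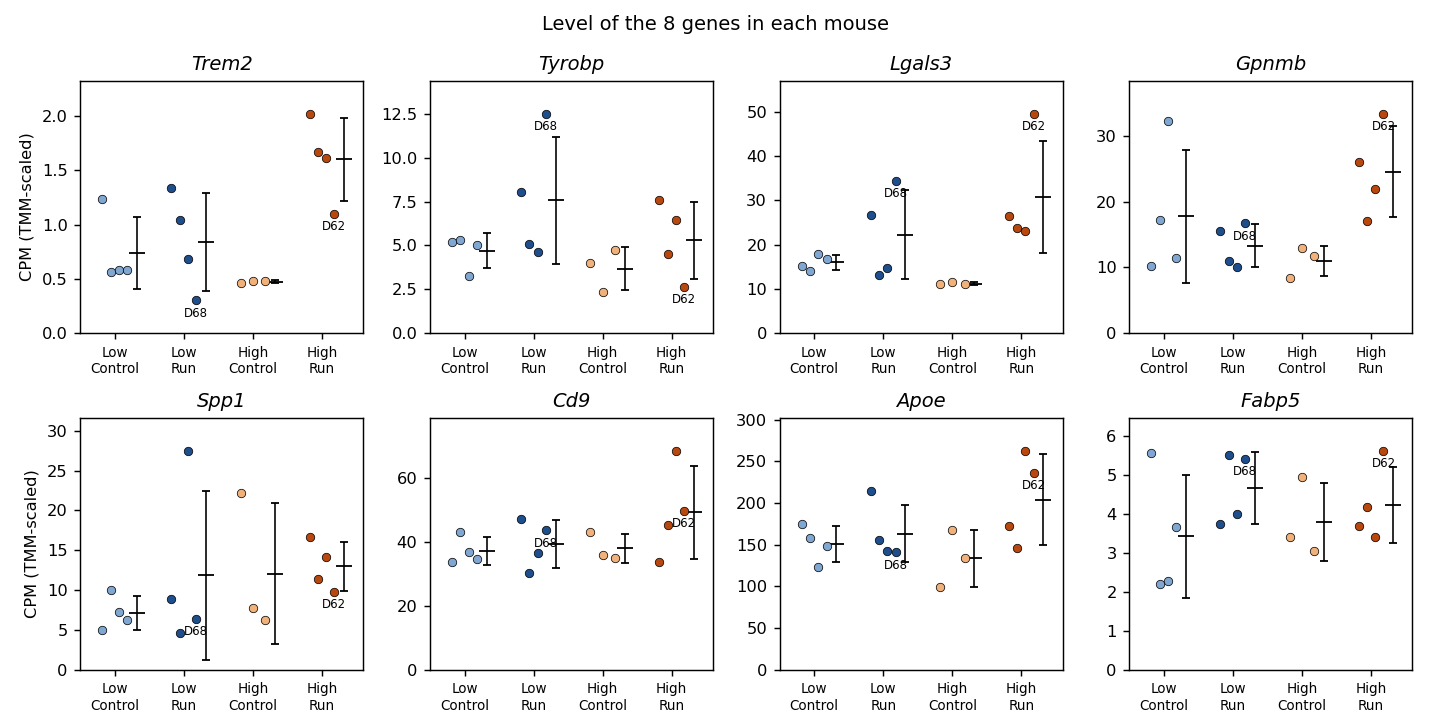
TMM-scaled CPM of the 8 genes, 1 point per mouse and 1 panel per gene, each axis from 0, with the mean and SD of each group in black beside its points (n = 4, 4, 3 and 4). The 4 High Run mice lie above the 3 High Control mice for Trem2, Lgals3 and Gpnmb and overlap them for the other 5 genes, and mice D62 and D68 are marked.

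Trem2 was highest in High Run mice. Its level was 2.02, 1.67, 1.61 and 1.1 CPM in the 4 High Run mice and 0.46, 0.48 and 0.48 CPM in the 3 High Control mice, so that every High Run mouse was above every High Control mouse. In Low Control mice it was 0.56, 0.58, 1.24 and 0.58 CPM, and in Low Run mice 1.34, 1.04, 0.68 and 0.3 CPM, which overlapped. The mean was 1.6 ± 0.377 CPM (SD, n = 4) for High Run mice, followed by Low Run mice at 0.843 ± 0.452 (n = 4), Low Control mice at 0.74 ± 0.332 (n = 4) and High Control mice at 0.474 ± 0.00921 (n = 3). High Control mice were also below every Low Control mouse, by a small margin, and the order of Low Run and Low Control was within their spread. The High Control values rest on 10 to 13 counts per mouse, so their SD is smaller than the counting error of any single value. Between High Run and High Control the edgeR log2 fold change was 1.74 ± 0.45 (SE), a 3.34-fold difference, and without mouse D62 it was 1.88.

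Tyrobp, the adaptor through which TREM2 signals, followed another order. It was 8.07, 5.08, 4.64 and 12.5 CPM in Low Run mice and 5.33, 3.23, 5.17 and 5.05 CPM in Low Control mice. In the High groups it was 7.57, 4.48, 6.47 and 2.64 CPM after running and 3.98, 2.32 and 4.74 CPM in controls. All neighbouring groups overlapped, and the highest group mean was that of Low Run mice, 7.56 ± 3.61 CPM (SD, n = 4), where mouse D68 with the high neutrophil sum held the highest value. TYROBP is also the adaptor of several receptors of neutrophils and natural killer cells, and the part of the neutrophils in this value was not tested. The log2 fold change was 0.68 ± 0.35 (SE) from Low Control to Low Run, and 0.32 without D68. From High Control to High Run it was 0.53 ± 0.39, and 0.28 without High Control D25, 0.3 without High Run D49 and 0.74 without D62.

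Lgals3, which encodes galectin-3, a sugar-binding lectin that macrophages recruit to damaged lysosomes and release, separated the High groups. It was 26.6, 23.7, 23 and 49.6 CPM in High Run mice and 11, 11.6 and 11 CPM in High Control mice. Low Control mice lay between them at 14, 18, 15.2 and 16.8 CPM, and Low Run mice were split, with 26.8 and 34.4 CPM in D57 and D68 and 13.2 and 14.7 CPM in D61 and D66. The High Run and Low Run groups overlapped, while the High Control mice were all below the Low Control mice. The log2 fold change from High Control to High Run was 1.46 ± 0.32 (SE), or 2.75-fold, and 1.12 without D62, the mouse with the highest value. In the Low groups it was 0.48 ± 0.29, and 0.18 without D68.

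Gpnmb, a glycoprotein of the lysosomal and cell surface membrane whose transcription is driven by lysosomal stress, was 26, 17, 21.9 and 33.4 CPM in High Run mice and 8.38, 12.9 and 11.7 CPM in High Control mice. In the Low groups it was 17.3, 32.3, 10.2 and 11.5 CPM in controls and 15.5, 11, 10.1 and 16.7 CPM after running. Every High Run mouse was above every High Control mouse and, by a small margin, above every Low Run mouse, and the Low groups overlapped. The log2 fold change was 1.16 ± 0.35 (SE) from High Control to High Run, 0.97 without D62, and -0.42 ± 0.32 from Low Control to Low Run. The Low value rests on control mouse D9, without which it was 0.03.

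Spp1, which encodes osteopontin, a secreted ligand of integrins and CD44, had no order by group. It was 4.95 to 10 CPM in Low Control, 4.57 to 27.5 in Low Run, 6.27 to 22.2 in High Control and 9.75 to 16.7 in High Run mice. Single mice held the top values, 27.5 CPM in Low Run mouse D66 and 22.2 CPM in High Control mouse D23, and neither mouse had the highest level of another gene of the 8. The log2 fold change with running was 0.73 ± 0.49 (SE) in Low mice, and -0.12 without D66. It was 0.11 ± 0.52 in High mice, 0.89 without High Control D23 and -0.20 without High Control D67.

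Apoe and Cd9 were the most abundant and among the least variable. Apoe, the lipoprotein component that carries cholesterol out of lipid-laden cells, averaged 204 ± 54.5 CPM (SD, n = 4) after running and 134 ± 34.5 (n = 3) without it in the High groups, and 163 ± 34.2 (n = 4) after running and 151 ± 21.8 (n = 4) without it in the Low groups. Its High groups overlapped, since High Control mouse D25 at 168 CPM exceeded High Run mouse D52 at 146 CPM. Cd9, a tetraspanin of the cell membrane, averaged 49.3 ± 14.5, 38 ± 4.51, 39.4 ± 7.5 and 37.1 ± 4.28 CPM in the same order of groups, with its highest value, 68.5 CPM, in High Run mouse D53. The log2 fold change from High Control to High Run was 0.61 ± 0.23 (SE) for Apoe and 0.38 ± 0.21 for Cd9, the latter 0.18 without D53. Fabp5, a carrier of fatty acids in the cytosol, averaged 4.23 ± 0.984, 3.8 ± 1, 4.66 ± 0.924 and 3.43 ± 1.58 CPM in that order, with all groups overlapping, and its log2 fold change was 0.44 ± 0.29 in Low mice, from 0.28 without D8 or D9 to 0.77 without D11, and 0.15 ± 0.31 in High mice.

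**Figure D2:**
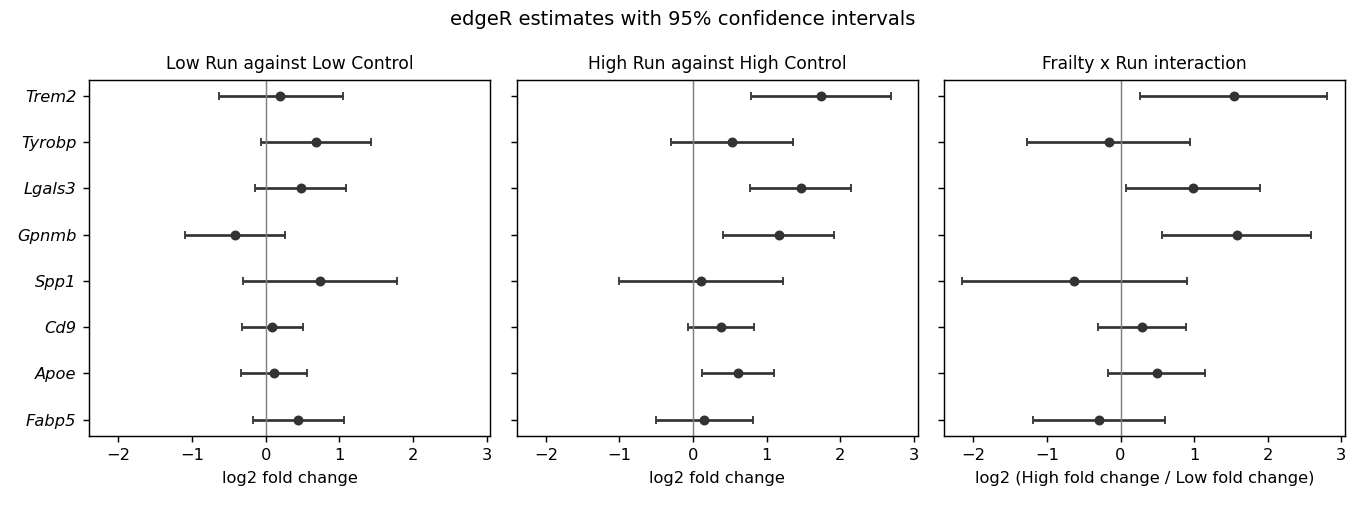
log2 fold changes of the 8 genes from edgeR, as points with 95% confidence intervals, for running in Low mice (4 against 4), running in High mice (4 against 3) and the Frailty × Run interaction, which is the High log2 fold change minus the Low one. Every interval crosses 0 in Low mice, and the largest High values are 1.74 for Trem2, 1.46 for Lgals3 and 1.16 for Gpnmb.

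Low Run against Low Control asks whether running changed these genes in mice with few frailty markers, and it is the comparison that shares no mice with the one that shaped the list. None of the 8 genes passed edgeR's quasi-likelihood test at an FDR of 0.1, with adjusted p from 0.39 for Tyrobp to 0.849 for Cd9. Over all genes tested 0% passed (0 of 16920), 2274 had an unadjusted p under 0.05 and none of those was among the 8. DESeq2 passed 10 genes in the fit to all mice and 28 in the fit to the Low mice alone, also none of the 8. The 95% interval of the difference for Trem2 ran from -0.64 to 1.05 on the log2 scale, and that for Gpnmb from -1.1 to 0.26, and differences inside these bounds could not be told from 0 with these mice. No gene of the 8 had all Low Run mice above or below all Low Control mice, where 3.32% of all genes lay higher and 3.6% lower. The median log2 fold change of the 8 was 0.32, beside 0.016 for all genes tested, and 7 of the 8 values were positive.

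High Run against High Control asks the same in mice with 2 or more markers. In 3 of the 8 genes, Trem2, Lgals3 and Gpnmb, every High Run mouse was above every High Control mouse, against 3.45% of all genes, and in none was it below, against 3.61%. Without D62 the same 3 genes were apart, against 7.0% of all genes. These counts are a description, as the comparison shaped the list. All 8 log2 fold changes were positive, with a median of 0.57 beside 0.047 for all genes tested. By edgeR 0% of all genes passed at an FDR of 0.1 (0 of 16920, with 877 at an unadjusted p under 0.05), so no gene of the 8 did. Of the 8 genes 4, Trem2, Lgals3, Gpnmb and Apoe, were among those 877, beside 5.18% of all genes. DESeq2 on only the High mice passed 53 genes, 31 of them higher after running (0.152% of 20460), and these included Trem2, Lgals3 and Gpnmb. DESeq2 on all mice passed 15 genes with Lgals3 among them, and voom with sample quality weights passed 45 with Trem2 and Lgals3.

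The Frailty × Run interaction, the difference between the running responses, was 1.54 ± 0.6 (SE) for Trem2, 1.58 ± 0.48 for Gpnmb and 0.99 ± 0.43 for Lgals3 on the log2 scale. It was 0.49 ± 0.31 for Apoe and 0.29 ± 0.28 for Cd9, and below 0 for Tyrobp (-0.16 ± 0.52), Fabp5 (-0.29 ± 0.42) and Spp1 (-0.63 ± 0.72). With other processing or 1 mouse left out, the interaction ran from 1.18 to 1.84 for Trem2, 1 to 1.77 for Gpnmb and 0.66 to 1.28 for Lgals3. Without High Run D53 it was 0.09 for Cd9, without High Control D23 it was 0.32 for Apoe and 0.16 for Spp1, and without Low Run D66 it was 0.22 for Spp1. For Tyrobp it was above 0 without Low Run D68 (0.19), High Run D62 (0.07) or High Control D67 (0.06), and for Fabp5 it lay between -0.62, without Low Control D11, and -0.05, without High Control D25. For the interaction edgeR gave an unadjusted p under 0.05 for 1342 genes (7.93% of all), with 3 of the 8, Trem2, Lgals3 and Gpnmb, among them. At an FDR of 0.1 edgeR passed 0% of all genes (0 of 16920), and DESeq2 on all mice passed 0. A difference in running response between Low and High mice was therefore not established for any of the 8 at that threshold.

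Between sedentary groups, Trem2 and Lgals3 were lower in every High Control than in every Low Control mouse, 2 genes of 8 where 5.28% of all genes lay lower and 5.14% higher. Their log2 differences, High minus Low, were -0.63 ± 0.45 (SE) and -0.52 ± 0.32, and Gpnmb stood at -0.69 ± 0.35 with overlapping groups. Each of these but that of Lgals3 depended on 1 mouse, with -0.28 for Trem2 without Low Control D11 and -0.24 for Gpnmb without Low Control D9. Without D9, Tyrobp was lower in every High Control mouse as well, while the share of all genes rose to 7.24%. Adjusted p for the 8 ran from 0.704 to 0.969, and edgeR passed 0% of all genes. It gave an unadjusted p under 0.05 for 992 genes, none of them among the 8. DESeq2 on these groups passed 37, also none of the 8. Between run groups, Gpnmb alone was higher in every High Run than in every Low Run mouse, 1 of 8 where 0.721% of all genes lay higher and 0.78% lower. Its log2 difference was 0.88 ± 0.32, that of Trem2 was 0.9 ± 0.38, and without D62 the run groups of Trem2 did not overlap either, with 1.51% of all genes higher. The smallest adjusted p of the 8 was 0.999, and edgeR passed 0% of all genes. It gave an unadjusted p under 0.05 for 424 genes (2.51% of all), with 2 of the 8, Trem2 and Gpnmb, among them. DESeq2 on the run groups passed 3, none of them among the 8.

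The macrophage identity markers are 19 genes used by macrophages, some of them, such as Cd163, Lyve1 and Mrc1, more by resident than by recruited cells. In High Run against High Control mice 17 of the 19 had a positive log2 fold change, with a list median of 0.56 beside 0.57 for the 8 genes. None passed edgeR's test, which passed 0% of all genes in each comparison. In Low Run against Low Control mice 15 of the 19 were positive, with a median of 0.44, again with none past the threshold. By edgeR an unadjusted p under 0.05 was found for 6 of the 19 in High mice, all positive, beside 5.18% of all genes. In Low mice it was found for 7, beside 13.4% of all genes. Of these, 5 were positive, Itgam (1.02 ± 0.41, SE), Spi1 (0.82 ± 0.38), Aif1 (1.46 ± 0.52), Ptprc (1.08 ± 0.4) and C1qa (0.63 ± 0.26). Cd163 (-0.59 ± 0.24) and Mertk (-0.36 ± 0.16) were negative. The interaction median of the list was 0.16. The 6 in High mice were C1qa (0.79 ± 0.28), C1qb (0.87 ± 0.32) and C1qc (0.75 ± 0.3) of the first component of complement, and Cd68 (1.01 ± 0.26), Lyve1 (0.56 ± 0.24) and Laptm5 (0.7 ± 0.33). Cd68 encodes a lysosomal protein of macrophages. In Low mice C1qb was at 0.46 ± 0.29, C1qc at 0.47 ± 0.28, Cd68 at 0.35 ± 0.23, Laptm5 at 0.58 ± 0.3 and Lyve1 at -0.12 ± 0.22. Maf, a transcription factor that muscle fibres express too, was negative in High mice (-0.58 ± 0.28) and positive in Low mice (0.44 ± 0.26). It averaged 387 CPM over all mice and so made up most of the summed level of the list. With Maf the sum was 562 ± 135 CPM (SD, n = 4) in High Run mice, against 662 ± 40 (n = 3) in their controls, and without it 228 ± 60.1 against 161 ± 32.9.

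Divided by the summed markers, a scale chosen after the data were seen, the High groups kept apart for Trem2 with either sum. Trem2 per 1000 CPM of markers averaged 2.87 ± 0.384 (SD, n = 4) in High Run and 0.718 ± 0.053 (n = 3) in High Control mice with all 19 markers, a ratio of 4, and 7.1 ± 0.876 and 3.02 ± 0.632 without Maf, a ratio of 2.35. Mouse D62, lowest of its group in Trem2 CPM, stood within the group on this scale, at 7.07 without Maf. Lgals3 was 3.72 times as high in High Run mice with all markers, a ratio carried by D62 at 133 and 2.33 without that mouse, and without Maf the groups overlapped, since High Control mouse D23 at 88.7 exceeded High Run mouse D53 at 87.4, with a ratio of 2.16 and, without D62, 1.39. Gpnmb remained apart, with ratios of 2.9 and 1.73, and of 2.07 and 1.26 without D62. Apoe was 1.91 times as high with all markers, with the groups apart, and 1.16 times without Maf, with the groups overlapping. Without D62 these were 1.5 and 0.932. For the other genes, with all mice, the groups overlapped on both scales and the direction turned with Maf, from 1.63 with all markers to 0.947 without Maf for Tyrobp, 1.6 to 0.93 for Cd9, 1.46 to 0.861 for Fabp5 and 1.31 to 0.673 for Spp1. The last rests on High Control mouse D23 at 179, where the other controls were at 43.1 and 34.4. Without D62 the Tyrobp groups were apart with all markers, at a ratio of 1.75, and overlapped at 1.02 without Maf. In Low mice the ratio of Low Run to Low Control for Trem2 was 0.848 with all markers and 0.977 without Maf.

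**Figure D3:**
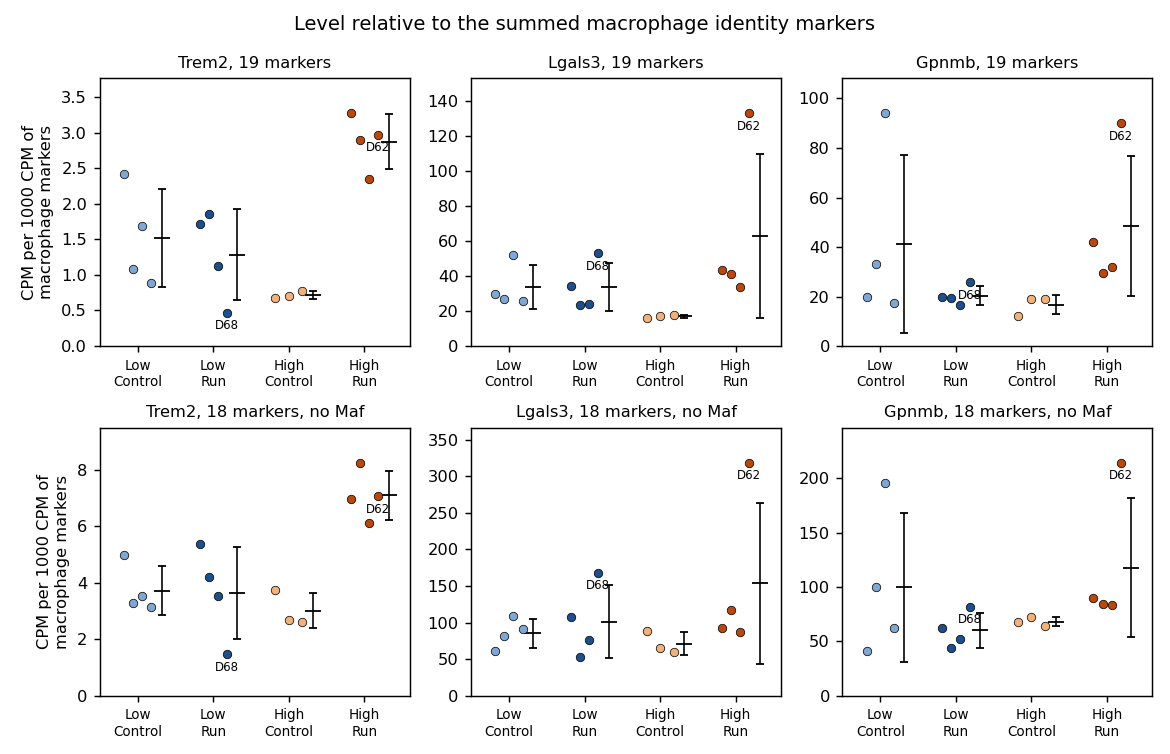
Level of Trem2, Lgals3 and Gpnmb per 1000 CPM of summed macrophage identity markers, 1 point per mouse, each axis from 0, with the group mean and SD in black. The upper row divides by all 19 markers and the lower row by the 18 without Maf, and Lgals3 separates High Run from High Control mice only in the upper row.

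The other genes of TREM2 signalling did not pass the test, where edgeR passed 0% of all genes in each comparison. Of 12 signalling partners 11 were tested, among them Syk, the kinase that docks on TYROBP, Plcg2, the lipase downstream of it, and Sirpa, an inhibitory receptor. All 11 had a positive log2 fold change with running in Low mice (median 0.49) and 10 in High mice (median 0.43), and none passed the test in either direction in any of the 5 comparisons. Syk was at 0.49 ± 0.37 (SE) in Low and 0.43 ± 0.4 in High mice, Plcg2 at 0.72 ± 0.41 and 0.42 ± 0.45, and Sirpa at 0.25 ± 0.23 and 0.34 ± 0.25. The interaction median of the list was -0.07, where Trem2 itself stood at 1.54.

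Other genes of the lipid-associated state were 25 enzymes, lipid carriers and surface proteins, with the lysosomal cathepsins among them. None passed the threshold in any comparison, where 0% of all genes did. By edgeR an unadjusted p under 0.05 was found for 7 of the 25 in High mice, all positive, beside 5.18% of all genes. In Low mice it was found for 2, both positive, beside 13.4%. For the interaction it was found for 1, negative, beside 7.93%. In High mice 19 of 25 log2 fold changes were positive (median 0.25) and 4 genes were higher in every High Run mouse, where 3.45% of all genes were. In Low mice 18 were positive (median 0.21) and 1 gene was higher in every Low Run mouse, which is near the 3.32% of all genes. The most abundant of them were Lpl, which releases fatty acids from lipoproteins, Ctsd, a lysosomal protease, and Cd36, a fatty acid receptor, all of which muscle or its vessels express too. Their log2 fold changes were 0.11 ± 0.27 (SE), 0.09 ± 0.22 and 0.3 ± 0.32 in High and -0.4 ± 0.25, -0.22 ± 0.2 and -0.61 ± 0.3 in Low mice.

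Genes for lipid efflux and uptake around APOE (14 genes) had medians of 0.11 in High and 0.09 in Low mice. The abundant members were Lrp1, a receptor for APOE, at 0.3 ± 0.27 (SE) and -0.23 ± 0.25, Clu, an extracellular lipoprotein chaperone, at 0.05 ± 0.31 and 0.67 ± 0.29, and Npc1, which exports cholesterol from lysosomes, at 0.87 ± 0.8 and -2.25 ± 0.76. Single mice carried the values of Npc1, which was 607 CPM in Low Control D9 against 45 to 141 in the others of that group, and 271 CPM in High Run D62 against 29.9 to 52.1. Receptors and partners of osteopontin and galectin-3 (12 genes, with Itgb1 and Itgb5 as integrin chains and Lamp1 as a lysosomal glycoprotein) had medians of -0.01 and -0.08, with Itgb1 at 0.03 ± 0.15 and -0.21 ± 0.14, Itgb5 at -0.06 ± 0.23 and -0.34 ± 0.22 and Lamp1 at -0.11 ± 0.12 and -0.07 ± 0.11. The MITF and TFE factors with PPAR partners of the fatty acid binding proteins (7 of 8 tested) had medians of -0.09 and -0.41, with Rxra at -0.37 ± 0.18 and -0.46 ± 0.16, Tfeb at -0.21 ± 0.18 and 0.1 ± 0.16 and Nfe2l2 at 0.15 ± 0.34 and -0.46 ± 0.32. No gene of these 3 lists passed the test in any comparison, where 0% of all genes did.

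No marker of another cell type passed the test in any comparison, where 0% of all genes did. The values are given for the lists as a whole. The 6 monocyte markers were all positive with running, with medians of 0.85 in Low and 1.2 in High mice. By edgeR 2 of them had an unadjusted p under 0.05 in Low mice, beside 13.4% of all genes, and 3 in High mice, beside 5.18%. In 2 of the 6 every High Run mouse was above every High Control mouse, beside 3.45% of all genes, and Low Run mice had 0 such markers. They summed to 40.5 to 108 CPM in Low Control, 78.4 to 160 in Low Run, 80.3 to 94.6 in High Control and 24 to 204 in High Run mice. Fn1, at a mean of 89.1 CPM over all mice, made up most of these sums, where Ccr2 averaged 4.37 CPM and Plac8 2.25 CPM. All 5 erythroid markers were positive in High mice (median 2.2) and negative in Low mice (median -1.19). All 5 had an unadjusted p under 0.05 in High mice and in the interaction, where 5.18% and 7.93% of all genes did, and none in Low mice. In High Run against Low Run all 5 were positive (median 1.76), all at an unadjusted p under 0.05, beside 2.51% of all genes. In High Control against Low Control all 5 were negative (median -1.51), 3 of them at such a p, beside 5.86%. Their sums were 312 to 487 CPM in High Control mice and 384, 953, 1330 and 3860 CPM in High Run mice, the highest in D53, the mouse highest in Apoe and Cd9. In Low Run mice the erythroid sums were 243 to 825 CPM. In Low Control mice they were 489, 561 and 989 CPM, and 2380 CPM in D11, the Low Control mouse highest in Trem2, Apoe and Fabp5. All 6 Schwann cell markers were positive in High mice (median 0.49), 2 of them at an unadjusted p under 0.05, and 1 of 6 was positive in Low mice (median -0.17). All 6 were positive in the interaction (median 0.75) and in High Run against Low Run (median 0.69), with 3 at an unadjusted p under 0.05 in each, beside 7.93% and 2.51% of all genes. Their sums were 94.7 to 183 CPM in Low Control, 67 to 130 in Low Run, 130 to 145 in High Control and 95.7 to 296 in High Run mice, the highest in D62. Their part in the values of the 8 genes was not tested. The 6 neutrophil markers had medians of 2.24 in Low and 0.59 in High mice, and 0 of them had an unadjusted p under 0.05 in either. Their sums were 10.6 to 70.4 CPM in Low Control, 12.5 to 449 in Low Run, 2.88 to 44 in High Control and 3.86 to 68.6 in High Run mice, and Ly6g was at 0 in some mice. The 7 lymphocyte markers tested had medians of 2.75 in Low mice, with all 7 at an unadjusted p under 0.05 beside 13.4% of all genes, and 1.1 in High mice, with 1 beside 5.18%. Low Run mouse D61 held 31.5 CPM of them, against 1.5 to 6.13 CPM in the other Low Run mice. The lymphocyte sums were 0.733 to 2.43 CPM in Low Control and 1.5 to 31.5 in Low Run mice, which overlapped. They were 0.738 to 2.12 CPM in High Control and 2.52 to 4.06 in High Run mice, so every High Run mouse was higher. Of the 7 markers, 3 were higher in every High Run than every High Control mouse, beside 3.45% of all genes, and 0 in Low mice. Cd3g, Cd8a, Cd79a, Ms4a1 and Nkg7 were at 0 in some mice.

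The median log2 fold changes of the remaining lists in High and Low mice were 0.43 and 1.34 for dendritic cells (sums of 6.79 to 11.4 CPM), 0.13 and -0.19 for endothelium, -0.01 and 0.29 for fibroblasts and fibro-adipogenic progenitors and 0.05 and 0.04 for smooth muscle and pericytes. They were -0.42 and -0.56 for adipocytes, 0.12 and 0.39 for satellite cells and -0.1 and 0.1 for skeletal muscle fibres. The summed fibre markers, unlike their median, set the High groups apart. They averaged 138000 ± 12300 CPM (SD) in High Run and 166000 ± 12700 CPM in High Control mice, with every High Run mouse lower. In the Low groups these sums overlapped. The part of these cell types in the values of the 8 genes was not tested.

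**Figure D4:**
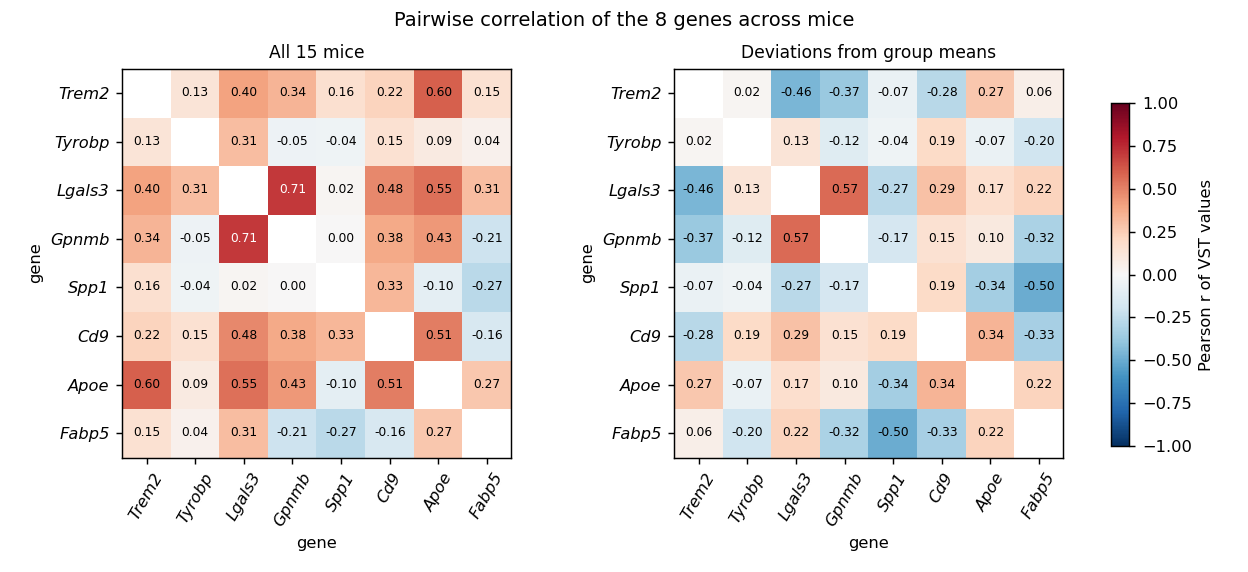
Pearson r between the 8 genes in the deposited VST values, over all 15 mice on the left and over deviations of each mouse from its group mean on the right, as numbers and colours from -1 (blue) to 1 (red). Lgals3 and Gpnmb are the pair with the highest r, 0.71 and 0.57, and Trem2 with Lgals3 is 0.40 on the left and -0.46 on the right, which become 0.83 and 0.38 without mice D62 and D68.

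The correlations of Trem2 with Tyrobp and Lgals3 across mice depended on 2 of the mice, and that with Apoe moved little without them. In the deposited values after variance-stabilizing transformation (VST), Pearson r with Trem2 over the 15 mice was 0.6 for Apoe, 0.4 for Lgals3, 0.34 for Gpnmb, 0.22 for Cd9, 0.16 for Spp1, 0.15 for Fabp5 and 0.13 for Tyrobp. Among all genes tested this put Apoe at rank 170 and Tyrobp, the adaptor of TREM2, at rank 5140. For deviations from the group means, r with Trem2 was -0.46 for Lgals3 and -0.37 for Gpnmb, and the Lgals3 value turned positive without D62 and D68. Other mice that stood apart in a marker sum, such as D61, D53, D11 and D9, were kept. D68 had the lowest Trem2 and the highest Tyrobp of the 15 mice. D62 had the highest Lgals3 of the 15 and the lowest Trem2 of its group. Without High Run D62 and Low Run D68, an omission chosen after the data were seen, r with Trem2 over the other 13 mice was 0.83 for Lgals3, 0.67 for Tyrobp, 0.62 for Apoe and 0.4 for Gpnmb, and within groups it was 0.38, 0.44, 0.37 and -0.15. It was 0.32 for Fabp5, 0.28 for Cd9 and 0.09 for Spp1, and within groups 0.55, -0.18 and -0.46. Lgals3 and Gpnmb had r = 0.71 with each other, and 0.57 within groups, and without D62 and D68 these were 0.65 and 0.45. The mice share group, depth and cell makeup, and these values are a description.

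The 10 genes with the pattern most like Trem2 over the 15 mice, apart from the 8, were Oas1b (r = 0.88), Fcgr2b (0.86), Ctss (0.84), Hps1 (0.83), Mcoln2 (0.82), Espl1 (0.82), Tbxas1 (0.81), Nlrc5 (0.8), Hpgds (0.8) and Clec4a1 (0.79). Fcgr2b is an inhibitory receptor for immunoglobulin G, Ctss a lysosomal protease of antigen-presenting cells, Tbxas1 and Hpgds make thromboxane and prostaglandin D, and Clec4a1 is a lectin receptor of myeloid cells. Oas1b, which ranked first, and Hps1, Mcoln2, Espl1 and Nlrc5 are named only, so the 10 are not given as a set of macrophage genes. Without the mice farthest from the median of Trem2, High Run D49 and D52, r stayed between 0.68 for Tbxas1 and 0.92 for Oas1b, and within groups it was between 0.63 for Espl1 and 0.88 for Clec4a1. From High Control to High Run the log2 fold changes of the 10 ran from 0.49 ± 0.34 (SE) for Hpgds to 1.7 ± 0.33 for Ctss, with 0.94 ± 0.26 for Fcgr2b. From Low Control to Low Run they ran from -0.12 ± 0.25 for Hps1 to 0.61 ± 0.29 for Ctss, with 0.05 ± 0.24 for Fcgr2b. The 10 were chosen for their likeness to Trem2 over the same mice, so group differences like those of Trem2 follow from that choice and are a description. Espl1 and Mcoln2 averaged only 0.526 and 0.39 CPM, so few counts lie behind their values.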

How the data were processed

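Gastrocnemius RNA of 15 mice was analysed. The authors aligned reads to mm10 with STAR 2.7.9a and used featureCounts to count proper pairs that aligned uniquely and in the sense of each Ensembl gene, leaving out the mitochondrial chromosome, and the deposited count table holds these whole numbers without normalization. A second deposited table holds log2-like values made by the authors with the variance-stabilizing transformation of DESeq2 (1.32.0 in the submitters' processing notes). No column was left out. GENCODE M21 (GRCm38) gave symbols and positions and named 55190 of 55450 genes.

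Counts were scaled by TMM, filtered by filterByExpr and tested with the quasi-likelihood F-test of edgeR 4.0.16 (R 4.3.3) in 1 model with a mean for each of the 4 groups, with Benjamini-Hochberg adjustment over 16920 genes and an FDR of 0.1. CPM used TMM-scaled totals. At totals of 19395125 to 30699216, genes of few counts, such as Trem2, carry large counting error. Groups were taken from the labels, and each library is 1 mouse. Pairs of mice of 1 group differed by a chi-square per degree of freedom of 15.7 to 191, so none was a repeat library.

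The rule for naming genes took the 8 genes, the 3 most abundant genes of each of 18 lists (164 genes, with Cd68 and Mertk in 2 lists) and the 10 genes most correlated with Trem2. C1qa, C1qb, C1qc, Cd68, Cd163, Mertk, Itgam, Spi1, Aif1, Ptprc, Lyve1 and Laptm5, and the genes at 0 counts, were named outside that rule after their values were seen. The cell type lists other than macrophages are given by medians, sums and counts, with Fn1, Ccr2 and Plac8 named for their level only. The genes and lists were chosen with earlier results of these data known. Alternatives were DESeq2 1.42.0, voom with sample quality weights in limma 3.58.1, a fit to the groups compared only, RLE and upper-quartile scaling, no filter on counts, a minimum of 10 counts in each mouse, an FDR of 0.05 and leaving out each mouse. Those chosen after seeing the data were the overlap of groups without D62, D68 or D9, levels per macrophage marker with and without Maf and without D62, correlations without D62 and D68, and length by the longest coding transcript. Promoter sequences came from RefSeq on GRCm38.p6. Python 3.11.15 was used for tables.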

Additional observations from a re-analysis of the deposited data

Results flagged for a closer look

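Among 24 groups of 4 mice examined, 3 held a mouse set apart from the others by Dixon's criterion at the 95% level, which chance meets in about 1 of 20 groups. Trem2 in Low Control mouse D11 was 1.24 CPM, where the other 3 mice lay between 0.56 and 0.58 CPM. The erythroid marker sum of D11 was 2380 CPM, against 489 to 989 CPM in the other Low Control mice, and its part in the Trem2 value was not tested. Tyrobp in Low Control mouse D9 was 3.23 CPM, below the 5.05 to 5.33 CPM of the others, and the macrophage marker sum of D9 was 343 CPM with Maf, the lowest of all mice, and 165 CPM without it, where 2 mice of the High groups were lower. Lgals3 in High Run mouse D62 was 49.6 CPM, where the others lay between 23 and 26.6 CPM. The same mouse was lowest of its group in Trem2 and Tyrobp.

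For Gpnmb the run mice lay on opposite sides of their control means in the 2 frailty groups. Every Low Run mouse was below the mean of Low Control mice and every High Run mouse above the mean of High Control mice, and the mean responses differed by 18 CPM. That pattern was not itself tested, and the edgeR interaction gave a log2 value of 1.58 ± 0.48 (SE) with an adjusted p of 0.6. In Low mice the log2 fold change was -0.42 ± 0.32, did not pass the test, and rests on Low Control mouse D9 at 32.3 CPM, without which it was 0.03 and the interaction 1.13.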

How the results depend on the processing

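The count of genes passing was 0 in every comparison with edgeR, RLE, upper-quartile scaling, an FDR of 0.05 and each mouse left out, and changed with tool and filter. For Low Run against Low Control it was 10 with DESeq2 on all mice, 28 with DESeq2 on the 2 groups and 86 without a count filter. For High Run against High Control it was 15, 53 and 19, and 45 with voom weights. It was 4 without a filter for the interaction, 37 with DESeq2 on the 2 groups for High Control against Low Control, and 3 with DESeq2 on the 2 groups and 6 without a filter for High Run against Low Run. Adjusted p in High mice for Lgals3 was 0.0319 with DESeq2 on all mice, 0.00128 with DESeq2 on the 2 groups, 0.0556 without a filter and 0.0654 with voom weights. For Trem2 it was 0.0413 with DESeq2 on the 2 groups and 0.0655 with voom weights, and for Gpnmb 0.0159 with DESeq2 on the 2 groups. The cause of these differences was not tested. Trem2 was filtered out by at least 10 counts in every mouse.

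Of the log2 fold changes of the 8 genes under alternatives, 626 kept direction and side of the threshold, 7 passed it and 26 changed sign. With voom weights Apoe in Low mice was -0.04 and the interaction of Tyrobp 0.32. With 1 mouse left out the log2 fold change in Low mice ran from -0.10 to 0.55 for Trem2, -0.62 to 0.03 for Gpnmb, -0.12 to 1 for Spp1, -0.01 to 0.18 for Cd9 and -0.04 to 0.18 for Apoe. In High mice it ran from -0.20 to 0.89 for Spp1 and -0.02 to 0.39 for Fabp5, and the interaction from -0.41 to 0.19 for Tyrobp and -0.94 to 0.22 for Spp1. Between controls it ran from -0.02 to 1.07 for Spp1, -0.07 to 0.12 for Cd9, -0.37 to 0.01 for Apoe and -0.08 to 0.48 for Fabp5, and between run groups from -0.14 to 0.98 for Spp1, 0.13 to 0.76 for Lgals3 and -0.74 to -0.17 for Tyrobp. In High mice it ran from 1.61 to 1.88 for Trem2, 1.12 to 1.58 for Lgals3 and 0.97 to 1.3 for Gpnmb.

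Without D62, 2 of the 8 genes did not overlap between run groups, in place of 1, while the share of all genes rose from 0.721% to 1.51%. Without TMM, CPM put 1115 genes (583 with TMM) higher in every High Run than every High Control mouse, and shifted the median of all genes by 0.11 on the log2 scale, beside 0.02 with TMM. The same 3 of the 8 stayed apart. With deviations from group means, r with Trem2 was -0.46 for Lgals3 and -0.37 for Gpnmb, and 0.38 and -0.15 without D62 and D68. No paired analysis was possible because the labels give each mouse its own identifier and share none between groups. With 3 or 4 mice a group, and 6 to 49 counts for Trem2, small differences were not detectable.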
